A study of Mus musculus with 27 samples.

Results

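Adding the cytokine IL-4 to cultures of mouse splenic B cells that already received an anti-CD40 antibody and IL-21 changed the RNA levels of 820 of 12147 tested genes at 24 h. The comparison took 3 libraries with anti-CD40, IL-4 and IL-21 (called IL-4 plus IL-21 below) and 3 libraries with anti-CD40 and IL-21 but no IL-4 (called IL-21), 6 of the 27 libraries of the series, chosen by their labels. The series measured polyadenylated RNA of B cells from the spleens of wild-type mice, before culture or after culture for 6 h or 24 h with the antibody and either no cytokine, IL-4, IL-21 or both, in 9 groups of 3 libraries, to ask what IL-21 does in the B cells themselves. IL-4 was used at 12.5 ng/mL and IL-21 at 50 ng/mL, and every cultured group received the antibody (clone HM40-3) at 1 µg/mL. The labels do not tell if replicates are separate mice or cultures, and p-values therefore measure only how these samples spread, which can be technical.

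IL-4 and IL-21 are both made by the helper T cells that meet B cells in lymphoid follicles, and CD40 is the receptor through which those T cells give contact help. The receptors of both cytokines share the common gamma chain. IL-4 signals mainly through STAT6, which turns on the germline transcripts that precede switching to IgG1 and IgE in mice, while IL-21 signals mainly through STAT3 and is known for driving T-bet, plasma cell formation and restraint of IgE.

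Values are TPM as deposited, a relative abundance corrected for transcript length and library total, and changes are log2 differences of TPM + 1 (IL-4 plus IL-21 minus IL-21) ± standard error with n = 3 libraries per group. That standard error uses a variance estimated over all 27 libraries in 9 groups, so spread in the other groups enters it. Genes counted as called had an adjusted p under 0.05 in limma, taken over all 12147 genes. Tested genes had at least 1 TPM in 3 or more of the 27 libraries, and a list's counts below cover its tested genes. Those counts stand beside 2.22% of all tested genes called higher and 4.53% called lower. This scale understates changes of genes with low values. A TPM table keeps no sequencing depth, so the precision of low values is unknown. Within the IL-4 plus IL-21 group the libraries correlated at 0.975 to 0.977, against 0.943 to 0.969 within the IL-21 group and 0.941 to 0.952 between the groups. Mitochondrially encoded transcripts made up 6.97% to 8.04% of the IL-4 plus IL-21 libraries and 6.56% to 8.14% of the IL-21 libraries.

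The B cell markers were high in both groups. Cd79b stood at 515 to 564 TPM with IL-4 plus IL-21 and 253 to 301 TPM with IL-21, and Ms4a1, for CD20, at 308 to 355 and 210 to 327 TPM. The defining T cell genes Cd3e, Cd3d, Cd3g, Cd4, Cd8a and Cd8b1 reached at most 0.327 TPM with IL-4 plus IL-21 and 1.51 TPM with IL-21, and the NK cell genes Klrb1c and Klra8, the neutrophil genes S100a9 and Ly6g and the dendritic cell genes Xcr1 and Clec9a were listed at 0 in all 6 libraries. Other members of these lists differed at low levels without overlap. The neutrophil gene Csf3r was at 0.406 to 0.607 TPM with IL-4 plus IL-21 and 0 with IL-21. Lower with IL-4 were the dendritic cell genes Flt3 (0.0166 to 0.215 against 0.576 to 1.53 TPM) and Siglech. So were the NK cell genes Prf1 (0.634 to 0.915 against 1.35 to 1.6 TPM) and Eomes. Trac, for the constant region of the T cell receptor alpha chain, was at 0.975 to 3.24 TPM with IL-4 plus IL-21 and 1.22 to 3.07 TPM with IL-21. Summed over the 11 T cell markers, the level was 96.5 to 123 TPM with IL-4 plus IL-21 and 142 to 178 TPM with IL-21. That sum was made up largely of Thy1 and Cd2, which moved in opposite directions as given below, and of Lck, at 13.1 to 25.5 and 16.6 to 23.2 TPM. The 9 NK cell markers summed to 0.766 to 1.51 TPM with IL-4 plus IL-21 and 2.01 to 2.64 TPM with IL-21, and the 9 neutrophil markers to 0.406 to 0.647 and 0 to 0.274 TPM. In bulk RNA, fewer cells of a type and less RNA per cell cannot be told apart.

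Of the 820 genes called (6.75% of those tested), 270 were higher with IL-4 (2.22%) and 550 lower (4.53%), and 180 and 340 of these differed at least 2-fold. The median over all tested genes was -0.14, and rescaling each library by median of ratios moved it to -0.009 and gave 396 higher and 482 lower genes, so that higher genes made up 45.1% of the calls instead of 32.9%. The 3 and 3 libraries did not overlap for 3104 genes (25.6%). Without replicate 1 of the IL-4 plus IL-21 group the count fell to 535, with 204 higher and 331 lower.

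**Figure D1:**
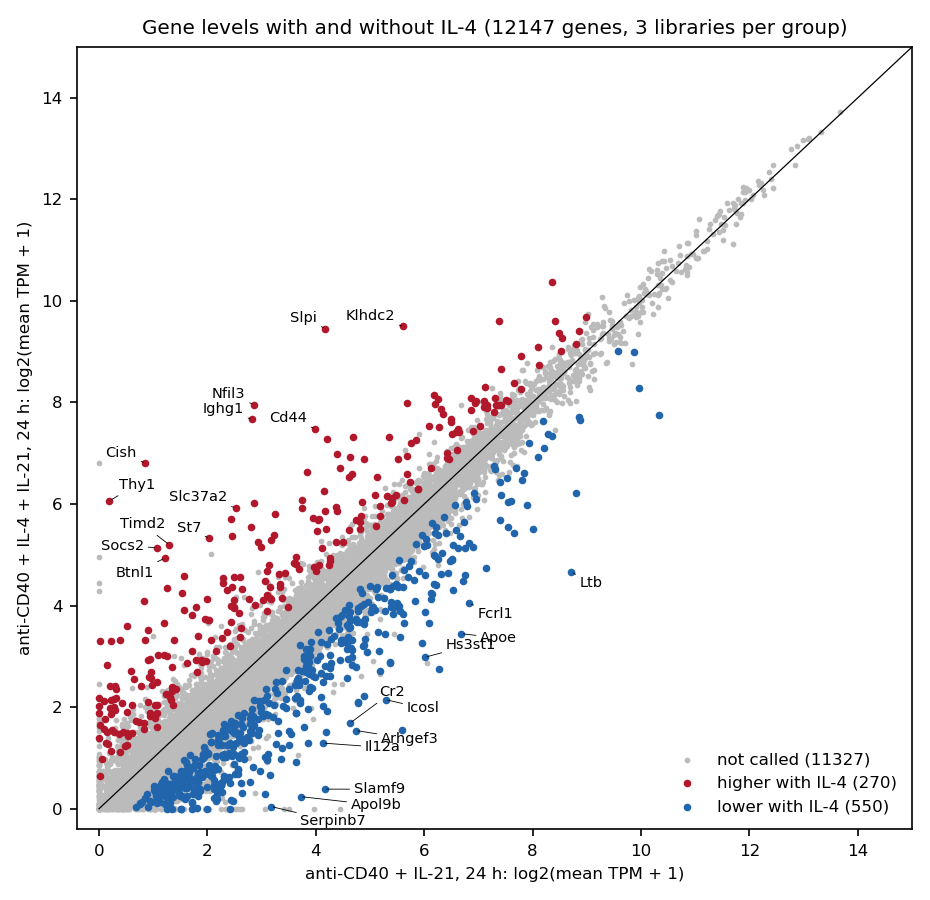
Mean level of each of 12147 genes at 24 h, as log2(mean TPM + 1), with IL-4 plus IL-21 on the vertical axis and with IL-21 on the horizontal axis; each point is 1 gene, and the line marks equal levels. The 270 genes called higher and the 550 called lower lie on the outer edges of the cloud, with Cish, Thy1, Slpi and Nfil3 far above the line and Ltb, Slamf9 and Apoe far below it.

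The largest rise was in Cish (ENSMUSG00000032578, chr9:107296026-107302784 in GRCm38), which encodes an SH2 protein that feeds back on cytokine signalling. It stood at 113, 109 and 111 TPM with IL-4 plus IL-21, against 1.01, 1.03 and 0.374 TPM with IL-21 (5.98 ± 0.31, adjusted p = 1.01e-11). Thy1 (chr9:44043384-44048579), for a surface glycoprotein best known on T cells and thymocytes, had 69.7, 67.9 and 59.4 TPM with IL-4 plus IL-21 and 0.321, 0.0328 and 0.0635 TPM with IL-21 (5.88 ± 0.35, adjusted p = 7.44e-11). It was thus near 0 in every IL-21 library and at least 59.4 TPM in every library with IL-4 added.

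Slpi (chr2:164354070-164389095) encodes a secreted inhibitor of leukocyte proteases. Its level was 651, 772 and 680 TPM with IL-4 plus IL-21 and 18.1, 15.2 and 18.0 TPM with IL-21 (5.27 ± 0.32, adjusted p = 8.72e-11). Nfil3 (chr13:52967209-52981073), for a basic leucine zipper factor, had 248, 251 and 245 TPM against 6.97, 6.94 and 4.82 TPM (5.12 ± 0.28, adjusted p = 2.2e-11). For both genes the IL-4 plus IL-21 libraries lay far above the IL-21 libraries.

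The next largest rises were in Timd2, for a receptor of the TIM family (3.94 ± 0.20), Klhdc2, for a substrate receptor of a ubiquitin ligase (3.88 ± 0.13), Btnl1, for a butyrophilin-like protein (3.74 ± 0.25), and Cd44, for the hyaluronan receptor (3.50 ± 0.37). Klhdc2 was abundant, at 754, 712 and 701 TPM with IL-4 plus IL-21 and 47.8, 45.3 and 51.3 TPM with IL-21. Cd44 had 165, 182 and 188 TPM with IL-4 plus IL-21 and 14.6, 17.5 and 12.6 TPM with IL-21. Slc37a2, for a sugar phosphate exchanger of the endoplasmic reticulum (3.45 ± 0.26), and St7 (3.30 ± 0.36) completed the 12 largest, together with Ighg1 and Socs2, given below.

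The largest fall was in Ltb (ENSMUSG00000024399, chr17:35194439-35196320), which encodes lymphotoxin beta, a membrane cytokine that B cells use to organise lymphoid tissue. It stood at 25.7, 22.4 and 24.6 TPM with IL-4 plus IL-21, against 439, 418 and 404 TPM with IL-21 (-4.06 ± 0.23, adjusted p = 5.61e-11). Slamf9, for a receptor of the SLAM family, had 0.267, 0.448 and 0.211 TPM with IL-4 plus IL-21 and 16.1, 13.1 and 21.6 TPM with IL-21 (-3.75 ± 0.23). For both genes every IL-4 plus IL-21 library lay below every IL-21 library, as the rule for naming them required.

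Apoe, which encodes the lipid carrier apolipoprotein E, was at 10.1, 11.2 and 8.47 TPM with IL-4 plus IL-21 and 93.5, 105 and 107 TPM with IL-21 (-3.24 ± 0.24). Icosl, for the ligand through which B cells engage ICOS on T cells, was at 3.56, 3.05 and 3.69 TPM against 36.8, 50.2 and 27.4 TPM (-3.10 ± 0.37). Cr2, for the complement receptor CD21, was at 3.29, 1.49 and 1.86 TPM against 20.2, 30.9 and 20.2 TPM (-2.96 ± 0.31). Each was thus several-fold lower in every library with IL-4. The other falls named for their size were in Apol9b (-3.46 ± 0.18), a gene with a near-identical neighbour whose reads the quantification could split, Arhgef3, for an exchange factor of small GTPases (-3.17 ± 0.22), Serpinb7, for a serpin (-3.11 ± 0.18), Hs3st1, for a heparan sulfate sulfotransferase (-3.02 ± 0.27), Il12a, for the p35 chain of IL-12 and IL-35 (-2.84 ± 0.24), and Fcrl1, for an Fc receptor-like protein of B cells (-2.79 ± 0.23). These 12 rises and 11 falls all stayed called when any 1 of the 6 libraries was left out.

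**Figure D2:**
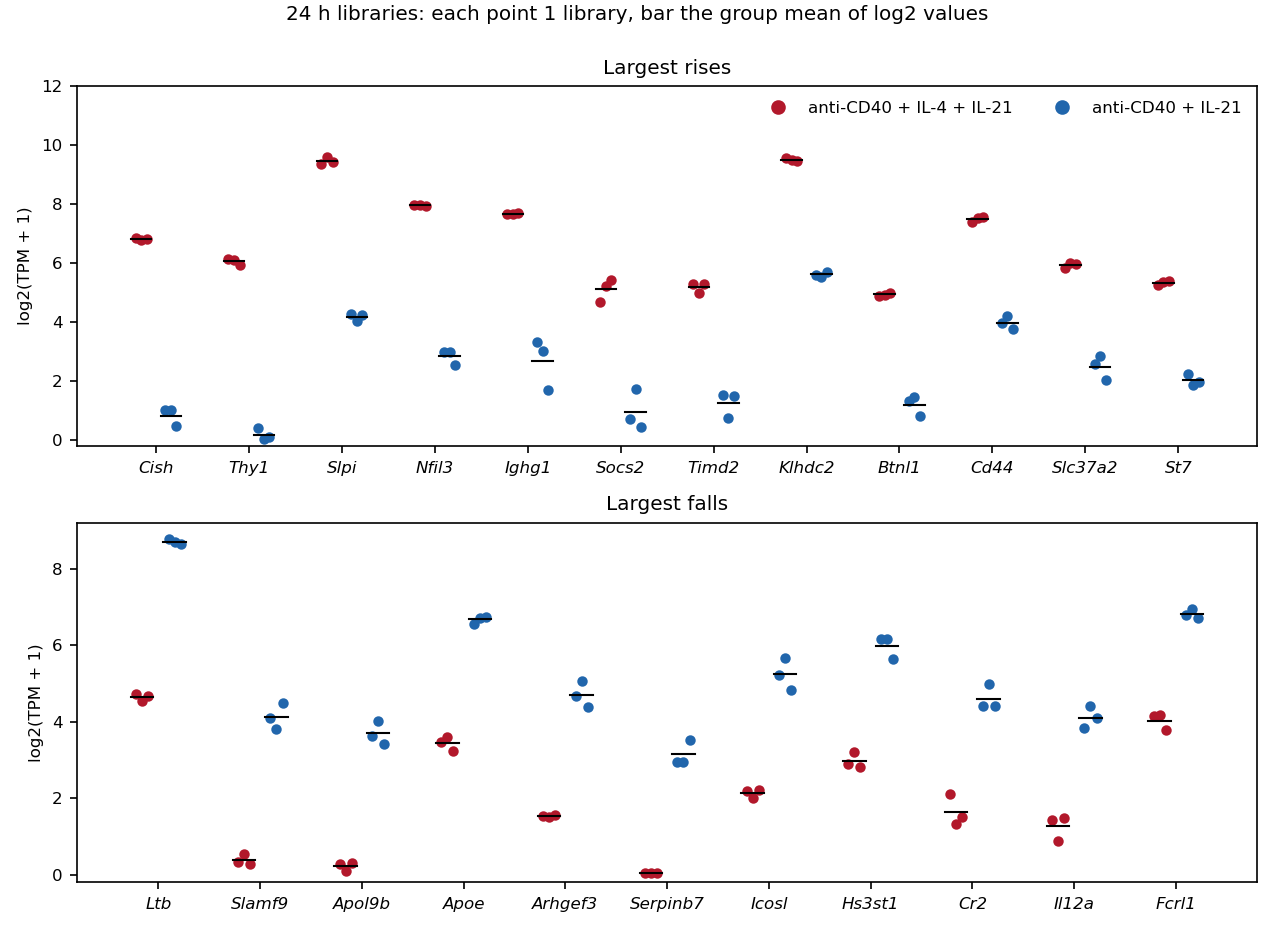
Level in each 24 h library, as log2(TPM + 1), of the 12 rises (upper row) and 11 falls (lower row) named for their size; red points are IL-4 plus IL-21 libraries, blue points IL-21 libraries, and black bars the group means. The 3 red and the 3 blue points do not overlap in any of the 23 genes, which was a condition for naming them. Of all tested genes 25.6% met that condition.

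Promoter sequences of these 23 genes were read from RefSeq windows of GRCm38.p6 that reach from 250 bases before to 50 bases after the annotated start, and 9 of the 12 rises and all 11 falls had a window. They were searched for the palindromes TTCNNNNGAA, the spacing that STAT6 is known to prefer, and TTCNNNGAA, the spacing of other STAT factors, both of which read the same on either strand. TTCNNNNGAA was in 3 of the 9 rises and 2 of the 11 falls, against 6.71% of the 8438 tested genes with a window and 6.95% of all 32851 windows. TTCNNNGAA was in 1 of the 9 rises and 1 of the 11 falls, against 8.52% and 8.3%. A match is a description of the letters, and no binding was measured. The windows below show a match in 2 genes that rose and 2 that fell, 5′ to 3′ on the strand of the gene, with matches in capitals. That of Cish covers chr9:107296654-107296683 on the plus strand, 30 bases around the RefSeq start, with matches that begin at bases 1 and 12 counted from that start. Those of Cd44 (chr2:102901666-102901915, minus strand), Ltb (chr17:35194257-35194506, plus strand) and Serpinb7 (chr1:107422439-107422688, plus strand) cover the 250 bases before the start.
Cish: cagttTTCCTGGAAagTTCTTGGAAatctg
Cd44: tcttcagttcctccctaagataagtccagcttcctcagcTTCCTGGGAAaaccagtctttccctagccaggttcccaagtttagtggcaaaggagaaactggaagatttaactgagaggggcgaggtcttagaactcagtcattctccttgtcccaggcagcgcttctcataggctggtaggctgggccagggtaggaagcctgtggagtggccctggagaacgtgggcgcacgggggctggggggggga
Ltb: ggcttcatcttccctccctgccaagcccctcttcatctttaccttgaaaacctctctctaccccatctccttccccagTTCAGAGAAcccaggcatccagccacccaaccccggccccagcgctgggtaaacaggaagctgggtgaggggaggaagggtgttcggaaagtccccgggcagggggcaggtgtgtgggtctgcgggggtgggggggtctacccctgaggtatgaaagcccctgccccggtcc
Serpinb7: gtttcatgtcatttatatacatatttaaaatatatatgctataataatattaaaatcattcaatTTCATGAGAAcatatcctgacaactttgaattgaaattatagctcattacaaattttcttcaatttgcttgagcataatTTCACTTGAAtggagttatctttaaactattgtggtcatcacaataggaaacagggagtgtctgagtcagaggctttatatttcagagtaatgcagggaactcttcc
In Cd44 the match begins 211 bases before the start, in Ltb 172 bases before it, and in Serpinb7 186 and 107 bases before it. The TTCNNNNGAA spacing is that of Cd44 and Serpinb7, which moved in opposite directions, and the TTCNNNGAA spacing that of Cish and Ltb, which did as well.

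Of the chains of the IL-4 and IL-21 receptors, 1 was called. Il4ra, for the signalling chain of the IL-4 receptor, had 227, 240 and 232 TPM with IL-4 plus IL-21 and 86.1, 91.9 and 57.2 TPM with IL-21, without overlap (1.59 ± 0.45, adjusted p = 0.0349). That call was lost when any of the 6 libraries was left out. The IL-21 receptor gene Il21r had 345, 345 and 335 TPM against 500, 545 and 342 TPM (-0.41 ± 0.36, adjusted p = 0.615), and Il2rg, for the shared gamma chain, 25.9, 34.9 and 33.7 TPM against 42.6, 69.2 and 37.9 TPM (-0.61 ± 0.52, adjusted p = 0.604). Neither was called.

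Of 25 tested cytokine receptor chains 2 rose and 3 fell, beside 2.22% and 4.53% of all tested genes, with a median of -0.26. The second that rose was Il12rb1, a chain of the IL-12 and IL-23 receptors, at 4.69, 7 and 5 TPM with IL-4 plus IL-21 and 0.531, 0.618 and 0.367 TPM with IL-21 (2.11 ± 0.29, adjusted p = 2.67e-05). Il18r1, for the IL-18 receptor, fell to 0.161, 0.215 and 0.107 TPM, against 4.22, 3.27 and 2.53 TPM (-1.88 ± 0.19). Il1r1, for the IL-1 receptor (-1.58 ± 0.15), and Il2ra, for the alpha chain of the IL-2 receptor (-1.07 ± 0.22), fell as well. Of 11 JAK and STAT genes Stat5a alone was called, at 80.8, 99.7 and 94.9 TPM with IL-4 plus IL-21 and 31.9, 44.2 and 26.1 TPM with IL-21 (1.43 ± 0.33, adjusted p = 0.00723). Stat6 averaged 2.16 TPM with IL-4 plus IL-21 and 4.34 TPM with IL-21, and Stat3 107 and 149 TPM, and neither was called (adjusted p = 0.53 and 0.606).

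Among 14 genes of the SOCS family and other cytokine feedback 3 rose, Cish, Socs2 and Socs1, and none fell, while the list's median was -0.23. Socs2 had 24.9, 36.4 and 41.5 TPM with IL-4 plus IL-21 and 0.638, 2.28 and 0.342 TPM with IL-21 (4.16 ± 0.46, adjusted p = 1.05e-06). Socs1, which inhibits JAK kinases, had 100, 101 and 91.7 TPM against 15.3, 13.7 and 11 TPM (2.79 ± 0.32, adjusted p = 1.75e-06). Socs3, which dampens STAT3 signalling, went the other way in value, at 456, 434 and 414 TPM with IL-4 plus IL-21 and 707, 748 and 503 TPM with IL-21, without overlap but not called (-0.57 ± 0.27, adjusted p = 0.284). Under median-of-ratios rescaling the list had 3 rises and 1 fall.

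Of 16 genes of the IL-4 and STAT6 response 15 were tested, of which 8 rose and 1 fell, with a median of 1.21 beside the -0.14 of all genes. Those that rose were Cish, Nfil3, Ighg1, Socs1, Il4i1, Il4ra, Ighe and Xbp1, and Cd86 fell. Il4i1, for a secreted amino acid oxidase induced by IL-4, had 1311, 1363 and 1289 TPM with IL-4 plus IL-21 and 334, 373 and 270 TPM with IL-21 (2.03 ± 0.42, adjusted p = 0.00279). Cd86, for a costimulatory ligand, had 15.3, 15.7 and 16.4 TPM against 28.4, 23.5 and 38.8 TPM (-0.86 ± 0.21, adjusted p = 0.013), and lost its call under median-of-ratios rescaling, without replicate 1 of the IL-4 plus IL-21 group and without replicate 3 of the IL-21 group.

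Fcer2a, for the low-affinity IgE receptor CD23 and a classic IL-4 target, had 139, 155 and 152 TPM with IL-4 plus IL-21 and 66.9, 97.4 and 50.7 TPM with IL-21. The groups did not overlap, yet the difference did not pass the limma test, whose standard error also draws on the other groups (1.09 ± 0.58, adjusted p = 0.339). The chemokine genes Ccl22 (0.73 ± 0.36, adjusted p = 0.282) and Ccl17 were not called either. Ccl17 was listed at 0.429, 0 and 0.169 TPM with IL-4 plus IL-21 and at 0 in all 3 IL-21 libraries. None of the 7 tested genes of the chemokine list was called by limma at the adjusted threshold, and the call of Ccl22 under median-of-ratios rescaling was the 1 made there. Ccl24, a chemokine gene outside that list and chosen after its values were seen, rose (2.97 ± 0.28, adjusted p = 1.07e-07).

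Of 13 genes of the IL-21 and STAT3 response 3 rose and 1 fell, with a median of -0.16. Besides Nfil3 these were Pim1, for a survival kinase (1.07 ± 0.29, adjusted p = 0.0262), a call lost without any of 5 of the 6 libraries, all but replicate 2 of the IL-21 group, and Batf, whose product pairs with JUN proteins, at 182, 170 and 162 TPM with IL-4 plus IL-21 and 101, 95 and 89.4 TPM with IL-21 (0.84 ± 0.12). The fall was in Tbx21.

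**Figure D3:**
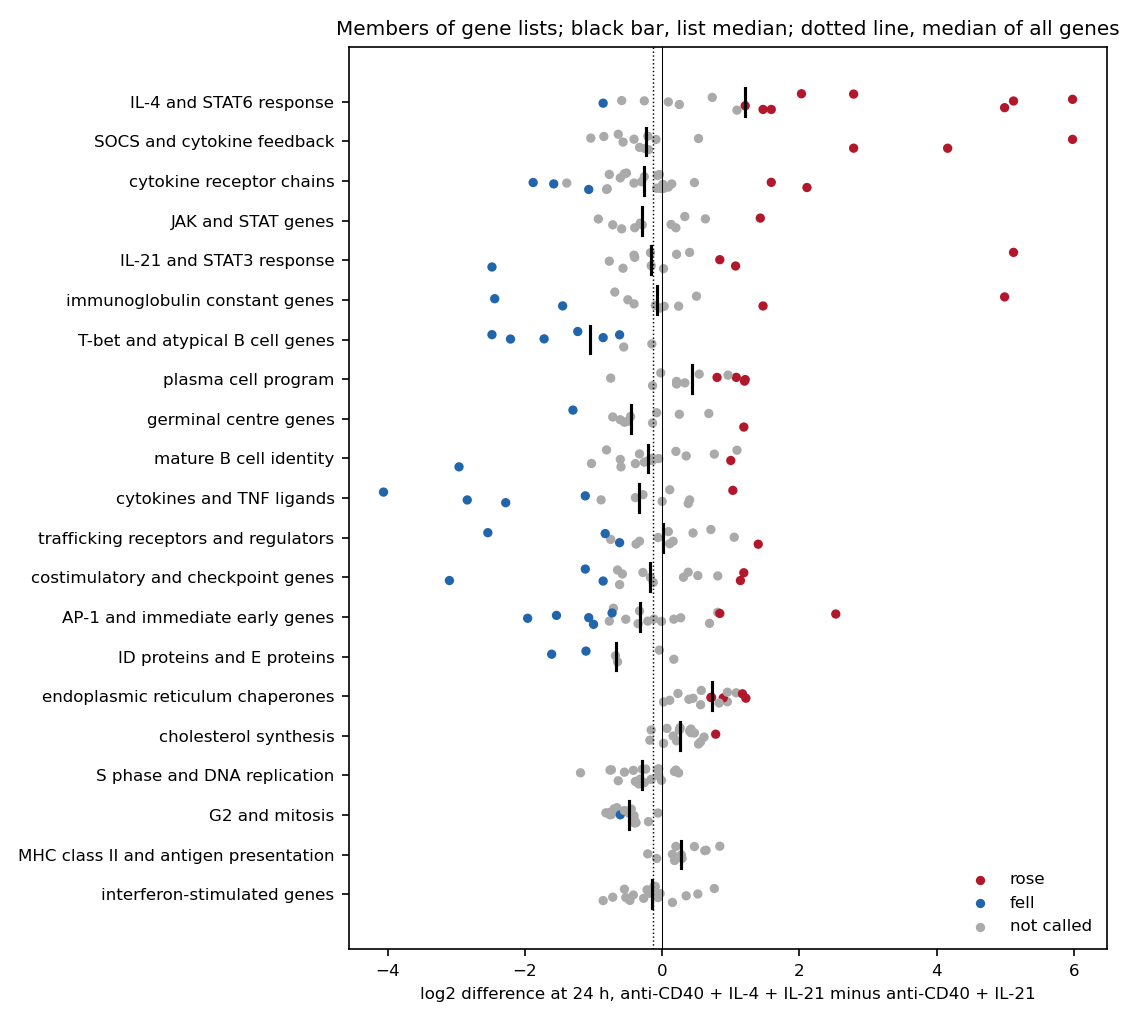
Log2 difference at 24 h, IL-4 plus IL-21 minus IL-21, of each tested member of 21 gene lists; red points rose, blue points fell, grey points were not called, black bars are list medians and the dotted line is the median of all genes. The median of the IL-4 and STAT6 list lies at 1.21 and that of the T-bet list at -1.05, while most other lists lie near the median of all genes, -0.14.

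Of 12 immunoglobulin constant genes 2 rose and 2 fell. Ighg1 (chr12:113325240-113330523) had 200, 201 and 206 TPM with IL-4 plus IL-21 and 8.95, 7.13 and 2.23 TPM with IL-21 (4.99 ± 0.42, adjusted p = 1.92e-08). Ighe (chr12:113269260-113273248) stayed low in both, at 2.55, 1.3 and 2.09 TPM against 0.0571, 0.131 and 0 TPM, without overlap (1.47 ± 0.30, adjusted p = 0.00294). Ighg2b moved in the opposite direction, at 9.42, 11.7 and 13.7 TPM with IL-4 plus IL-21 and 64.6, 74.7 and 61.8 TPM with IL-21 (-2.44 ± 0.31, adjusted p = 8.27e-06).

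Ighg2c fell with it (-1.45 ± 0.37, adjusted p = 0.0161), at 2.63, 7.58 and 7.76 TPM with IL-4 plus IL-21 and 17.2, 20.8 and 13.1 TPM with IL-21, a call lost without replicate 1 of the IL-4 plus IL-21 group or replicate 1 or 2 of the IL-21 group. So the IgG1 and IgE genes were higher with IL-4 and the IgG2b and IgG2c genes lower. A value per gene does not separate germline from switched transcripts, and the constant genes of the IgG subclasses are similar enough that quantification could share reads between them.

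Of the 12 genes of the T-bet and atypical B cell list 8 passed the filter on low values, and of these none rose and 6 fell, with a median of -1.05, and 4 fell under median-of-ratios rescaling. Tbx21 (chr11:97098071-97115331), which encodes T-bet, the factor behind IgG2 switching and atypical B cells in mice, had 7.39, 6.22 and 5.6 TPM with IL-4 plus IL-21 and 42.3, 44.9 and 33.6 TPM with IL-21 (-2.48 ± 0.21, adjusted p = 2.05e-08). Fcrl5, for an inhibitory Fc receptor-like protein, had 19.3, 18.6 and 18.1 TPM against 92.6, 107 and 73.5 TPM (-2.21 ± 0.32). For each, every IL-4 plus IL-21 library lay below every IL-21 library.

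The integrin genes Itgam, for CD11b (-1.72 ± 0.21), and Itgax, for CD11c (-1.23 ± 0.20), fell at low levels, Itgam to 0.383, 0.662 and 0.455 TPM, against 4.47, 5.16 and 2.52 TPM. Both also mark myeloid cells. Summed over 11 macrophage and monocyte markers the level was 1.74 to 2.51 TPM with IL-4 plus IL-21 and 6.26 to 11.7 TPM with IL-21, and over 9 dendritic cell markers 3.68 to 5.68 and 6.07 to 8.68 TPM. Csf1r was at most 0.224 TPM with IL-4 plus IL-21 and 0.338 TPM with IL-21, and Adgre1 at most 0.34 and 0.571 TPM. Itgam was the only macrophage marker of 7 tested that was called, and the part of such cells in these falls was not tested. The chemokine receptor gene Cxcr3 completed the 6 with Cd86, at no more than 0.0605 TPM with IL-4 plus IL-21 and at least 0.394 TPM with IL-21 (-0.62 ± 0.19, adjusted p = 0.0462), a call lost under median-of-ratios rescaling and without any of 5 of the 6 libraries, all but replicate 2 of the IL-21 group. Zeb2, for a factor of the same cells, was at 31, 22.2 and 28.4 TPM against 29.9, 47.6 and 18.8 TPM and was not called (adjusted p = 0.883).

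Of 12 tested plasma cell genes 4 rose and none fell, with a median of 0.44. These were Mzb1, for a chaperone of immunoglobulin assembly, at 322, 318 and 304 TPM with IL-4 plus IL-21 and 136, 111 and 167 TPM with IL-21 (1.20 ± 0.14, adjusted p = 2.35e-06), Slamf7 (1.08 ± 0.17), Creb3l2 (0.80 ± 0.19) and Xbp1 (1.21 ± 0.37, adjusted p = 0.0484). The call of Xbp1, for the factor of the unfolded protein response, was lost without any of 5 of the 6 libraries, all but replicate 2 of the IL-21 group, and that of Creb3l2 without replicate 1 or 3 of the IL-4 plus IL-21 group or replicate 3 of the IL-21 group. Prdm1, which encodes Blimp-1, a driver of plasma cells, was at 2.45, 2.21 and 3.36 TPM with IL-4 plus IL-21 and 2.4, 2.62 and 1.55 TPM with IL-21 (0.21 ± 0.21, adjusted p = 0.682), and Irf4 averaged 25.5 and 29.3 TPM (-0.14 ± 0.33, adjusted p = 0.888).

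Of 11 germinal centre genes 1 rose, Cd83, and 1 fell, Mef2b, beside 2.22% and 4.53% of all tested genes. Cd83, for a surface protein of activated B cells, had 824, 704 and 795 TPM with IL-4 plus IL-21 and 330, 328 and 361 TPM with IL-21 (1.19 ± 0.14, adjusted p = 2.14e-06). Mef2b, for a factor upstream of Bcl6, had 27.7, 29.9 and 30.4 TPM against 81.2, 87.6 and 56.2 TPM (-1.30 ± 0.38, adjusted p = 0.0382), a call lost without any of 5 of the 6 libraries, all but replicate 3 of the IL-21 group. Bcl6, for the germinal centre repressor, had 20, 19.9 and 19.7 TPM with IL-4 plus IL-21 and 29.6, 36.9 and 23.7 TPM with IL-21, without overlap and not called (-0.55 ± 0.25, adjusted p = 0.245). Of 17 genes of mature B cell identity Cd79b, for a chain of the B cell receptor, rose (1.00 ± 0.24) and Cr2 fell, and Pax5 (adjusted p = 0.656) and Bach2 (adjusted p = 0.611) were not called.

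Among 12 tested cytokine and tumour necrosis factor ligand genes 1 rose and 4 fell, with a median of -0.34. Lta, for lymphotoxin alpha, the partner of lymphotoxin beta, had 2.2, 3.4 and 2.77 TPM with IL-4 plus IL-21 and 17.6, 21.3 and 13.8 TPM with IL-21 (-2.28 ± 0.31, adjusted p = 2.26e-05), so both lymphotoxin genes fell. Il12a stood at 1.72, 0.852 and 1.79 TPM against 13.3, 20.2 and 16.1 TPM, and Tnfsf4, for OX40 ligand, fell as well (-1.12 ± 0.22). Csf1, for a macrophage growth factor, rose (1.03 ± 0.28, adjusted p = 0.0257), a call lost without any of 5 of the 6 libraries, all but replicate 2 of the IL-21 group. Il10 was at 2.51, 2.83 and 2.88 TPM with IL-4 plus IL-21 and 2.41, 1.57 and 1.61 TPM with IL-21 and was not called (0.40 ± 0.20, adjusted p = 0.292).

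Of 15 costimulatory and checkpoint genes 2 rose, Cd83 and Cd274, and 3 fell, Icosl, Tnfsf4 and Cd86. Cd274, for the inhibitory ligand PD-L1, had 10.2, 10.1 and 10.1 TPM with IL-4 plus IL-21 and 4.5, 4.49 and 3.33 TPM with IL-21 (1.14 ± 0.22, adjusted p = 0.00155). Among 14 trafficking genes 1 rose and 3 fell. Ccr6, for the receptor of CCL20, had 69.3, 75.8 and 75.3 TPM with IL-4 plus IL-21 and 458, 551 and 320 TPM with IL-21 (-2.54 ± 0.39, adjusted p = 0.000121). Klf2, for a factor that controls exit from lymphoid tissue, rose to 124, 112 and 116 TPM, against 53.5, 44.8 and 35.2 TPM (1.40 ± 0.32, adjusted p = 0.0072), and Cd69, whose product retains lymphocytes in tissue, was lower (-0.83 ± 0.21, adjusted p = 0.0179). The call of Cd69 was lost under median-of-ratios rescaling, without replicate 2 of the IL-4 plus IL-21 group and without replicate 3 of the IL-21 group, and the third fall was that of Cxcr3.

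Of the T cell markers, Cd2, for an adhesion receptor that lymphocytes including B cells carry, fell to 26.4, 28.7 and 22.2 TPM, against 144, 156 and 120 TPM (-2.39 ± 0.27, adjusted p = 1.87e-06), and Cd5 fell at levels under 1 TPM (-0.64 ± 0.15). Among 10 erythroid and platelet markers, summed to 11.3 to 22.8 TPM with IL-4 plus IL-21 and 30.0 to 47.9 TPM with IL-21, the haemoglobin gene Hbb-bt was called, at 5.55, 2.69 and 1.95 TPM with IL-4 plus IL-21 and 9.61, 10.2 and 16.2 TPM with IL-21 (-1.62 ± 0.30).

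Of 19 AP-1 and immediate early genes 2 rose, Egr2 and Batf, and 5 fell, Egr1, Nr4a1, Egr3, Jun and Nr4a3, with a median of -0.33. Egr2, for a factor that restrains lymphocyte activation, had 20.7, 22 and 19.4 TPM with IL-4 plus IL-21 and a scattered 7.27, 4.13 and 0.246 TPM with IL-21 (2.53 ± 0.49, adjusted p = 0.00149, a call lost when only the libraries compared were fitted), while its relative Egr1 had 5.53, 4.86 and 4.58 TPM against 26, 28.5 and 14.6 TPM (-1.96 ± 0.29, adjusted p = 8.02e-05). Nr4a1, for an orphan nuclear receptor induced by antigen receptor signals, fell to 1.34, 0.874 and 1.08 TPM, against 5.32, 6.21 and 3.96 TPM (-1.54 ± 0.28). The calls of Jun, at 89.1, 93.7 and 87.8 TPM with IL-4 plus IL-21 and 194, 216 and 142 TPM with IL-21, and Egr3 (-1.07 ± 0.32) were lost without any of 5 of the 6 libraries, all but replicate 3 of the IL-21 group, and that of Nr4a3 (-0.73 ± 0.18) without replicate 2 of either group. Of 6 genes for ID proteins, which block E protein transcription factors, and for E proteins, Id2 fell to 36.1, 31.7 and 35.1 TPM, against 102, 109 and 109 TPM (-1.61 ± 0.13, adjusted p = 9.35e-09), and Id3 fell to 20.6, 20.9 and 18.5 TPM, against 44.3, 50.6 and 39 TPM (-1.11 ± 0.24, adjusted p = 0.00343).

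Of 18 genes of the CD40 and NF-kB response 1 rose and 1 fell, beside 2.22% and 4.53% of all tested genes. Tnfaip3, for the NF-kB inhibitor A20, had 16.3, 21.4 and 19.6 TPM with IL-4 plus IL-21 and 5.71, 8.57 and 1.37 TPM with IL-21 (1.91 ± 0.41, adjusted p = 0.00422), a call lost when only the libraries compared were fitted. Nfkbia, for the inhibitor IκBα, had 198, 227 and 199 TPM against 478, 531 and 371 TPM (-1.13 ± 0.23, adjusted p = 0.00286). Tnfaip3 and Nfkbia thus moved in opposite directions. With median-of-ratios rescaling 4 of the 18 rose and 3 fell.

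Of 16 genes for endoplasmic reticulum chaperones and secretory proteins 5 rose and none fell, with a median of 0.72 beside the -0.14 of all genes, and 9 of 16 rose under median-of-ratios rescaling. Manf, for a stress-induced secreted protein, had 294, 249 and 268 TPM with IL-4 plus IL-21 and 108, 127 and 112 TPM with IL-21 (1.22 ± 0.19, adjusted p = 0.000142). Creld2 (1.17 ± 0.28, a call lost without replicate 2 of the IL-4 plus IL-21 group), Pdia6, for a disulfide isomerase (0.89 ± 0.19), Sec61b, for a subunit of the translocon (0.72 ± 0.10), and Dnajc3, for a co-chaperone (0.71 ± 0.17), rose as well. Of 16 amino acid and ATF4 genes Chac1 (1.44 ± 0.22) and Trib3 (0.97 ± 0.23) rose, and Slc7a11, at 0.371 TPM with IL-4 plus IL-21 and 1.03 TPM with IL-21, fell (-0.54 ± 0.16). The call of Trib3 was lost without replicate 2 of the IL-4 plus IL-21 group or replicate 1 of the IL-21 group, and that of Slc7a11 without any of 5 of the 6 libraries, all but replicate 2 of the IL-21 group. Of 17 cholesterol synthesis genes Idi1, for an isomerase of isoprenoid units, rose (0.78 ± 0.16, adjusted p = 0.00292), and 4 rose under median-of-ratios rescaling.

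None of 21 S phase genes and 1 of 17 G2 and mitosis genes, Birc5, was called, with list medians of -0.29 and -0.48, and Mki67 was at 28.2, 36.1 and 41.2 TPM with IL-4 plus IL-21 and 58.6, 92.4 and 38.9 TPM with IL-21 (-0.76 ± 0.35, adjusted p = 0.241). Of 11 cyclin-dependent kinase inhibitor and G1 cyclin genes Cdkn1a, for p21, rose (0.87 ± 0.25), and Cdk6 (-1.48 ± 0.41) and Cdkn2c (-0.83 ± 0.23) fell, each losing its call without any of at least 5 of the 6 libraries. Of 12 p53 targets Trp53inp1 (-1.12 ± 0.16), Sesn1 (-0.72 ± 0.15) and Plk2 (-0.84 ± 0.24, a call lost under median-of-ratios rescaling) fell beside the rise of Cdkn1a. Of 12 anti-apoptotic genes Bcl2a1d, which has near-identical copies, rose (0.83 ± 0.24) and Birc5 fell (-0.61 ± 0.18), neither call holding under median-of-ratios rescaling, and none of 9 pro-apoptotic genes was called, with Bcl2l11, for BIM, at 16.7, 19.8 and 19 TPM with IL-4 plus IL-21 and 15.3, 19.8 and 15.9 TPM with IL-21.

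By limma none of 11 MHC class II, 13 MHC class I, 19 MYC target, 15 glycolysis, 20 interferon-stimulated and 13 mitochondrially encoded genes was called, with list medians of 0.28, 0.03, -0.02, -0.21, -0.15 and 0.01. Of 10 genes of dissociation and heat stress Jun alone was called, with a list median of -0.02. Over all genes 2184 passed an unadjusted p below 0.05. Median-of-ratios rescaling called 1 MYC target higher, and 1 interferon-stimulated gene in each direction.

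The same comparison was made at 6 h, in libraries of its own. There, 154 genes were higher with IL-4 (1.27%) and 351 lower (2.89%). Of the 270 genes higher at 24 h, 80 were also higher at 6 h, which is 29.6% of the 24 h genes and 51.9% of the 6 h genes, and 3 were lower. Of the 550 lower at 24 h, 129 were also lower at 6 h, 23.5% of the 24 h genes and 36.8% of the 6 h genes, and 3 were higher. The median difference of the 270 was 1.26 at 24 h and 0.35 at 6 h, and that of the 550 was -1.12 and -0.45. Both sets were picked by their calls at 24 h, so their larger medians at 24 h are partly fixed by that choice.

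The difference between the effects at 24 h and at 6 h was called for 143 genes (1.18%), 75 with a more positive (0.617%) and 68 with a more negative effect at 24 h (0.56%). The genes were named by size at 24 h, and the same 24 h libraries enter this test, so a larger effect at 24 h is partly fixed by the choice. Cish was already at 104, 104 and 83.9 TPM with IL-4 plus IL-21 at 6 h, against 11.2, 9.12 and 12.8 TPM with IL-21 (3.03 at 6 h, 2.95 ± 0.43 more at 24 h, adjusted p = 0.000252 for the change). Its IL-4 plus IL-21 values were thus close at both times, while its IL-21 values were lower at 24 h. Thy1 had 5.48, 4.11 and 2.31 TPM with IL-4 plus IL-21 at 6 h and 0.012, 0 and 0 TPM with IL-21, so its IL-4 plus IL-21 level was far lower at 6 h than at 24 h.

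Slc37a2 and Btnl1 did not differ by test at 6 h (-0.04, adjusted p = 0.995, and 0.31, adjusted p = 0.818), and their effect changed by 3.48 ± 0.37 and 3.44 ± 0.35. With a pseudocount of 0.1 the change for Btnl1 was 2.83 and no longer called (adjusted p = 0.0735). S100a4, for a calcium-binding protein, was lower with IL-4 at 6 h (-1.14, adjusted p = 0.0132), at 16, 9.84 and 8.2 TPM with IL-4 plus IL-21 and 24.2, 31.9 and 21.1 TPM with IL-21. At 24 h it was higher, at 63.3, 64.7 and 73 TPM against 11.5, 9.75 and 16.3 TPM (2.35 ± 0.27). Rflnb, for an actin regulator, turned the other way, higher at 6 h (1.37, adjusted p = 0.0045) and lower at 24 h (-1.94 ± 0.28). Cr2 was not called at 6 h (0.60, adjusted p = 0.468), and its effect changed by -3.56 ± 0.44. St7 (3.40 at 6 h and 3.30 at 24 h), Id2 (-1.65 and -1.61) and Il18r1 (-2.22 and -1.88) had similar effects at both times.

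**Figure D4:**
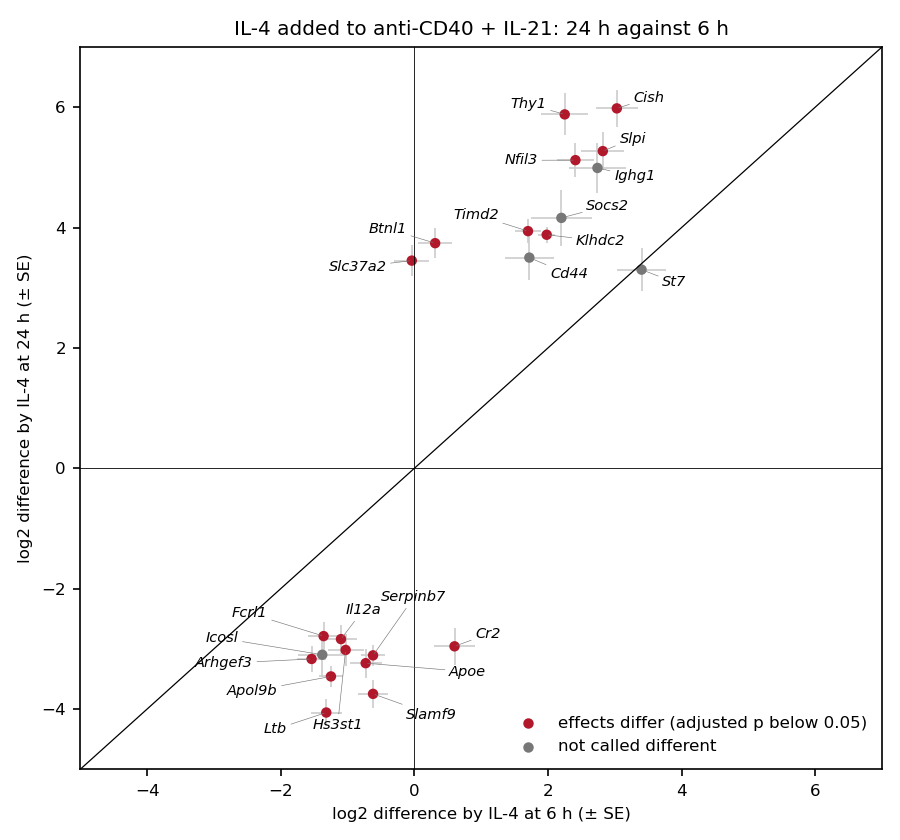
IL-4 effect in the presence of IL-21 at 24 h (vertical axis) against 6 h (horizontal axis), as log2 differences ± standard error, for the 12 rises and 11 falls named for their size at 24 h; red points are genes whose effects differed between the times, and the diagonal marks equal effects. St7 lies close to the diagonal, at 3.30 at 24 h and 3.40 at 6 h, and Slc37a2, Btnl1 and Cr2 lie far from it.

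To ask whether the IL-4 effect depended on IL-21, the same difference was taken in cultures without IL-21 at 24 h, which share no library with the main comparison. There 1006 genes were higher (8.28%) and 2810 lower (23.1%) with IL-4. The IL-4 libraries without IL-21 are uneven, with deviations from their group mean that had SDs of 0.499, 0.265 and 0.422 on the log2 scale, against 0.286 to 0.301 with IL-4 plus IL-21 and 0.33 to 0.445 with IL-21. Of the 270 genes higher with IL-4 in the presence of IL-21, 136 were also higher in its absence (50.4%, and 13.5% of the 1006) and 15 lower, and of the 550 lower genes 331 were also lower (60.2%, and 11.8% of the 2810) and 8 higher.

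The effects with and without IL-21 differed for 705 genes (5.8%), 404 in the positive (3.33%) and 301 in the negative direction (2.48%), with a median of 0.19 over all genes. Without replicate 1 of the group with anti-CD40 and IL-4, the count was 2460, with 1929 positive and 531 negative. Median-of-ratios rescaling gave 1352, of which 44.4% were positive instead of 57.3%, and moved that median to -0.021. The positive count was 263 without replicate 2 of the group with anti-CD40 and IL-4, and 257 without replicate 3 of the group with anti-CD40 alone.

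Ighe showed a much larger IL-4 effect when IL-21 was absent, at 43.1, 14.6 and 11.2 TPM with IL-4 and 0.213, 0.108 and 0.118 TPM with anti-CD40 alone. Its effect with IL-21 minus that without was -2.68 ± 0.43 (adjusted p = 0.000435), or -2.12 (adjusted p = 5.29e-05) without replicate 1 of the IL-4 group. For Ighg1 the effects did not differ by test (-0.29 ± 0.60, adjusted p = 0.819), with 250, 96.9 and 62 TPM with IL-4 and 2.06, 1.13 and 3.05 TPM with anti-CD40 alone. Among these cultures Ighe was thus highest with IL-4 and no IL-21, while Ighg1 was high wherever IL-4 was present.

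Ido1 (chr8:24584136-24597009), for an enzyme that degrades tryptophan, was high where both cytokines were present. It had 49, 42.4 and 46.7 TPM with IL-4 plus IL-21 and 5.75, 5.21 and 6.92 TPM with IL-21 (2.76 ± 0.17, adjusted p = 1.04e-10), against 0.212, 0.174 and 0.354 TPM with IL-4 and 0.109, 0.321 and 0.1 TPM with anti-CD40 alone. The effects differed by 2.68 ± 0.24 (adjusted p = 9.08e-07). Slpi had 8.41, 5.13 and 4.71 TPM with IL-4 and 0.154, 0 and 0.0708 TPM with anti-CD40 alone, and its effect was 2.59 ± 0.45 larger with IL-21 (adjusted p = 0.001). With a pseudocount of 0.1 in place of 1, that difference between the effects of Slpi was 0.15 and no longer called (adjusted p = 0.929). Of 7 genes that an earlier analysis of these data had picked for a joint response to both cytokines 4 rose, Slpi, Ido1, B3gnt7 (2.67 ± 0.45) and S100a6 (2.00 ± 0.24), which is not independent evidence of their direction.

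Tbx21 was low without IL-21, at 0.26, 0.0226 and 0.0863 TPM with IL-4 and 0.36, 0.242 and 0.625 TPM with anti-CD40 alone, and it was not called there (-0.32, adjusted p = 0.26), while its fall was called with IL-21 (difference between the effects -2.15 ± 0.30, adjusted p = 0.000104). With a pseudocount of 0.1 that difference for Tbx21 was -1.37 and not called (adjusted p = 0.248). Bcl6 had 5.84, 2.29 and 1.35 TPM with IL-4 and 20.2, 20.1 and 27.8 TPM with anti-CD40 alone, a difference of -2.64 without IL-21 that was not called with it (2.09 ± 0.36 between the effects, adjusted p = 0.000876). Cd80, for a costimulatory ligand, fell without IL-21 (-2.10) and was at most 1.2 TPM in the 24 h libraries with IL-21 (1.98 ± 0.30 between the effects). Tnfaip3 fell by 1.62 on the log2 scale without IL-21 and rose with it (3.53 ± 0.58 between the effects, adjusted p = 0.000616).

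Socs3 rose with IL-4 in the absence of IL-21, to 14.4, 7.45 and 6.47 TPM, against 1.14, 0.551 and 1.77 TPM with anti-CD40 alone, while it was at 414 TPM or more in every 24 h library with IL-21 (-2.81 ± 0.39 between the effects). Ccl17 was at 8.43, 13.9 and 14 TPM with IL-4 and 0.183, 0 and 0.337 TPM with anti-CD40 alone, and at or near 0 with IL-21 (-3.21 ± 0.33). Ltb fell with IL-21 (-4.06) and without it (-2.96), and Cish rose with IL-21 (5.98) and without it (5.28). For neither gene did the effects differ by test (adjusted p = 0.0524 and 0.381), but they did without replicate 1 of the IL-4 group (adjusted p = 0.0477 and 0.0197).

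**Figure D5:**
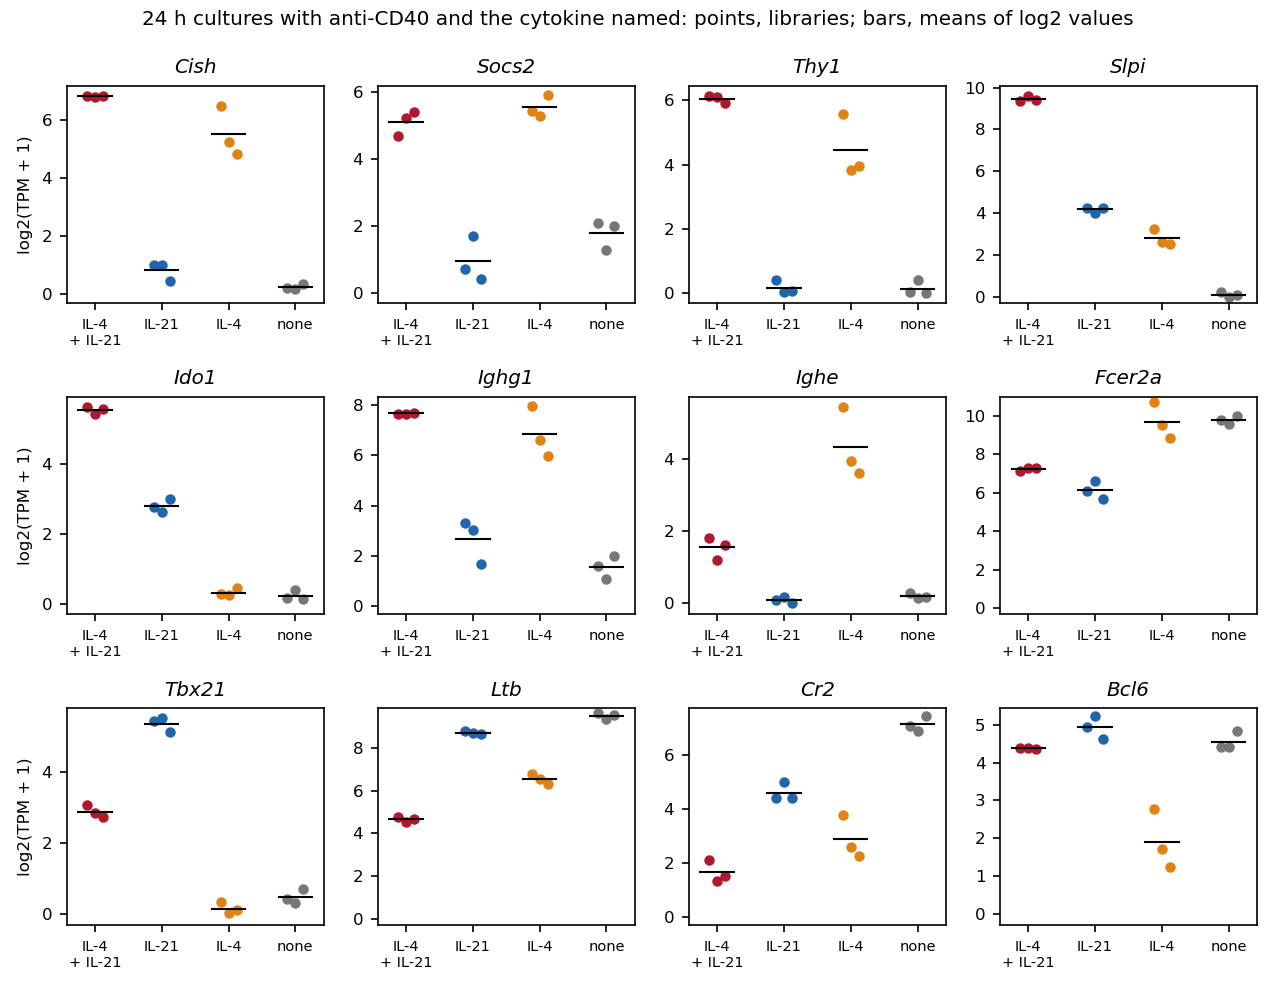
Level in each 24 h library, as log2(TPM + 1), of 12 genes in the 4 cultures with anti-CD40: with IL-4 plus IL-21 (red), IL-21 (blue), IL-4 (orange) or no cytokine (grey); bars are group means. Cish, Thy1 and Ighg1 are high in both cultures with IL-4, Ighe is highest with IL-4 and no IL-21, Tbx21 is highest with IL-21 and no IL-4, and Ido1 is highest with both.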

How the data were processed

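Gene-level TPM values for 35604 gene IDs in 27 libraries were deposited by the authors. The submitters' processing notes name Salmon 1.9.0 and the builds GRCm38 and mm10, and further steps are not given in the sources used here. Of the IDs, 35301 matched GENCODE M21, which gave symbols and coordinates, and promoter sequences came from RefSeq (GRCm38.p6). TPM divides by transcript length and by the library total, so a few abundant transcripts can move all other values, and it keeps no read depth. No interval or floor from counts was therefore possible.

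Genes with at least 1 TPM in 3 or more libraries (12147) were tested on log2(TPM + 1) with limma 3.58.1 in R 4.3.3, with 1 mean per group over all 27 libraries, an intensity trend in the variance and 18 residual degrees of freedom, and with Benjamini-Hochberg adjustment over all tested genes. Contrasts were the IL-4 effect with IL-21 at 24 h, its change since 6 h, and its difference from the effect without IL-21. An exact permutation test of 3 against 3 cannot go below p = 0.1. The script was tested on simulated data. Deviations of same-numbered libraries from their group means correlated at 0.0184 to 0.0434 between the groups of the main comparison. They correlated at 0.276, 0.21 and 0.0736 at 6 h and at 0.0902, 0.268 and -0.209 at 24 h without IL-21. Not every pair passed 0.1 in any of these, so replicate numbers were not taken as pairs. Alternatives covered the pseudocount, the filter, rescaling, the variance model, the replicate block, the libraries fitted and the leaving out of each library.

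The gene lists, panel and comparison were chosen with earlier results of these data known. Named genes were the 12 largest rises and falls among called genes whose higher group averaged 5 TPM or more and whose groups did not overlap, passing over unnamed models, pseudogenes and immunoglobulin segments; the 4 largest in each direction of the other contrasts; a panel of receptors and regulators; and, per list, the 3 called members that moved most with the largest called member of opposite direction. The remaining called list members and the genes under other observations were chosen after their values were seen. Genes that these rules named and the text leaves out, 1 of the 12 largest falls among them, are not reported here. No column of the table belonged to no sample.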

Additional observations from a re-analysis of the deposited data

Results flagged for a closer look

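For 24 genes the IL-4 effect in the presence of IL-21 differed between 24 h and 6 h by limma's test of that difference. They were named for their size in the main comparison or this contrast, or in the panel of receptors and regulators. As log2 differences of the effect, 24 h minus 6 h, those with a more positive effect at 24 h were Hist1h4m at 3.90, Thy1 at 3.62, S100a4 at 3.50, Slc37a2 at 3.48, Btnl1 at 3.44, Cish at 2.95, Nfil3 at 2.71, Slpi at 2.46, Timd2 at 2.24, Klhdc2 at 1.90 and Ido1 at 1.69. Those with a more negative effect at 24 h were Cr2 at -3.56, Rflnb at -3.31, Slamf9 at -3.13, Ltb at -2.74, Apoe at -2.51, Serpinb7 at -2.49, Apol9b at -2.22, Hs3st1 at -1.99, Il12a at -1.75, Arhgef3 at -1.63, Tbx21 at -1.54, Fcrl1 at -1.43 and Cd86 at -1.37. Most were named for their size at 24 h, with the same libraries in this test. Those named as the 4 largest in each direction of this contrast were called by that choice. Marcks, named for its size in the contrast with and without IL-21, was also called and is not among the 24. Its difference was 1.52 with a pseudocount of 0.1. Over all 136 named genes, list members included, the test called 42, against 1.18% of all tested genes. The named genes were partly chosen by their calls, so a higher share among them follows from the choice. With a pseudocount of 0.1 in place of 1, 10 of the 24 lost the call, namely Thy1, Slpi, Btnl1, Ido1, Hist1h4m, Cd86, Tbx21, Fcrl1, Hs3st1 and Apol9b. Of the 24, 22 stayed called without any 1 of the 12 libraries involved. Cd86 lost its call without any of 5 libraries, which were replicate 1 of IL-4 plus IL-21 at 24 h, replicates 1 and 3 of IL-4 plus IL-21 at 6 h, and replicate 3 of IL-21 at each time. Fcrl1 lost its call without any of 6, which were replicate 3 of IL-4 plus IL-21 at 24 h, replicates 1 and 2 of IL-4 plus IL-21 at 6 h, replicate 2 of IL-21 at 24 h, and replicates 2 and 3 of IL-21 at 6 h. Hist1h4m is 1 of many near-identical histone genes, and its value is uncertain.

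For 24 genes the IL-4 effect at 24 h differed between cultures with and without IL-21 by the same kind of test. They were named for their size in the main comparison or this contrast, or in the panel. Given as the effect with IL-21 minus that without, and then the same without replicate 1 of the anti-CD40 and IL-4 group, the positive differences were Cd36 at 3.63 (3.44), Tnfaip3 at 3.53 (3.93), Plxnd1 at 3.29 (3.33), Marcks at 3.10 (3.46), Ido1 at 2.68 (2.66), Slpi at 2.59 (2.81), Timd2 at 2.14 (2.02), Bcl6 at 2.09 (2.52), Cd80 at 1.98 (1.90), Btnl1 at 1.91 (2.18), Slc37a2 at 1.79 (2.10), Il12a at 1.27 (1.33), Fcrl1 at 1.11 (1.28) and Klhdc2 at 0.72 (0.73). The negative differences were Rflnb at -3.78 (-3.31), Ccl17 at -3.21 (-3.43), Tmem176b at -3.10 (-2.79), Socs3 at -2.81 (-2.49), Serpinb7 at -2.71 (-2.71), Ighe at -2.68 (-2.12), Tbx21 at -2.15 (-2.07), Hs3st1 at -1.78 (-1.58), Cd86 at -1.74 (-1.90) and Apol9b at -1.54 (-1.59). S100a4, named for its size in the contrast between the times, was also called and is not among the 24. Its difference was 3.14 with a pseudocount of 0.1. Over all 136 named genes this test called 50, against 5.8% of all tested genes. The named genes were partly chosen by their calls, so a higher share among them follows from the choice. With a pseudocount of 0.1, 7 of the 24 lost the call, namely Slpi at 0.15, Btnl1 at 1.54, Tbx21 at -1.37, Fcrl1, Il12a, Hs3st1 and Apol9b. All 24 were also called without that replicate, and 20 without any 1 of the 12 libraries involved. Genes named as the 4 largest in each direction of this contrast were called by that choice. Their calls here are therefore not independent support. The exceptions were Fcrl1 and Il12a, each lost without any of 8 libraries, Klhdc2, lost without replicate 2 of the IL-4 group or replicate 1 of the group with anti-CD40 alone, and Plxnd1. Plxnd1 was listed at 0, 0 and 2.43 TPM with IL-4 plus IL-21 and at 0 in every IL-21 library at 24 h, and lost its call without replicate 3 of the IL-4 plus IL-21 group.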

How the results depend on the processing

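The number of genes called moved with several settings. No named gene reversed direction in an alternative run where it was called in that run or in the main run. Uncalled genes could change sign, as Id1 did for the main comparison, from -0.04 to 0.07 with a pseudocount of 0.1. For the main comparison, array weights called 3249 genes (1010 higher and 2239 lower), fitting only the libraries compared called 504 (288 lower), no filter called 1346 (1013 lower) and a 5 TPM filter called 550 (337 lower). Fitting only the libraries compared lost the call of 22 of the 111 named genes called at 24 h. Leaving out each library called 535 to 763, of which 200 to 256 were higher and 331 to 508 lower. For the change since 6 h, array weights called 575 (263 and 312), a pseudocount of 0.1 called 80 (38 and 42), and the positive count was 49 with the 5 TPM filter, 116 with median-of-ratios rescaling and 126 with no filter. Leaving out each library called 114 to 181 (60 to 86 and 51 to 95). For the difference from the effect without IL-21, array weights called 5623 (4177 and 1446), median-of-ratios rescaling 1352 (752 negative), only the libraries compared 289 (181 and 108), and leaving out special transcripts 1163 (782 positive). Leaving out each library called 501 to 2460 (257 to 1929 and 204 to 531). Without replicate 1 of both the naive and the anti-CD40 and IL-4 24 h groups, chosen after seeing the data, the counts were 1265 (414 and 851), 256 (120 and 136) and 3015 (2393 and 622). The cause of these differences was not tested.

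With a replicate block the counts were 939, 156 and 892, and the replicate numbers do not pair the libraries of the main comparison. Over the named genes and their comparisons, leaving out 1 library left the call as it was in 1762 of the fits, lost it in 157 and gained it in 1. The other settings left it as it was in 2145, lost it in 110 and gained it in 9. Fits of uncalled genes whose sign changed are counted among those left as they were. With 3 libraries per group and no depth in TPM values, small changes and genes near the filter could not be resolved.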

Other observations

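Genes for lipid mediators, galectins and cell death were among the called genes outside the lists, and were chosen after their values were seen. Ptgs1, for cyclooxygenase 1, had 5.4, 7.03 and 5.99 TPM with IL-4 plus IL-21 and 0.229, 0.117 and 0 TPM with IL-21 (2.68 ± 0.16, adjusted p = 9e-11 by limma). Hpgds, for the haematopoietic prostaglandin D synthase, had 7.3, 9.94 and 14.2 TPM against 0.803, 0.597 and 1.22 TPM (2.59 ± 0.25). Both rose without overlap. Ptgs1 was not called at 6 h (-0.04, adjusted p = 0.992 by limma) or without IL-21 (0.21, adjusted p = 0.336 by limma). Hpgds was called at 6 h (1.71, adjusted p = 0.000169 by limma) and without IL-21 (1.21, adjusted p = 0.000984 by limma). Ccl24, for an eosinophil chemokine, was at 8.54, 6.69 and 11.8 TPM with IL-4 plus IL-21 and listed at 0, 0 and 0.936 TPM with IL-21 (2.97 ± 0.28). Lgals3 (1.97 ± 0.22) and Lgals1 (1.78 ± 0.21), for galectins, Fabp5, for a fatty acid binding protein (2.29 ± 0.15), Casp6, for a caspase (2.60 ± 0.16), and Ido2, for a relative of Ido1 (2.22 ± 0.20), rose as well.

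Among surface receptors and signalling genes of B cells, Cd24a had 227, 201 and 221 TPM with IL-4 plus IL-21 and 1276, 1051 and 1561 TPM with IL-21 (-2.56 ± 0.16, adjusted p = 1.1e-10 by limma). Cd38, for an ectoenzyme, had 22, 20.3 and 22.3 TPM against 107, 105 and 99.5 TPM (-2.21 ± 0.20), and Fcgr2b, for the inhibitory IgG receptor, 49, 48.1 and 54.8 TPM against 178, 172 and 155 TPM (-1.71 ± 0.16). All were lower in every library with IL-4. Cd72 (-2.46 ± 0.29), Fcrla (-2.51 ± 0.43) and Syk, for a kinase of the B cell receptor (-1.85 ± 0.34), fell too. Btk, for another kinase of that receptor, fell (-1.97 ± 0.46, adjusted p = 0.00893 by limma), a call lost without replicate 3 of the IL-4 plus IL-21 group or replicate 2 of the IL-21 group. The chemokine receptor gene Ccr1 had 0.24, 0.221 and 0.225 TPM with IL-4 plus IL-21 and 7.23, 5.81 and 8.97 TPM with IL-21 (-2.74 ± 0.17). Ccr1 is also expressed by myeloid and T cells, and the part of such cells was not tested. The sum of neutrophil markers was higher with IL-4 and was made up largely of Csf3r, at 0.406 to 0.607 TPM against 0 with IL-21. The sums of macrophage, dendritic cell, NK cell, and erythroid and platelet markers were lower with IL-4. The T cell sum was lower too, but Cd2 and Thy1 within it moved in opposite directions.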
